A study of Mus musculus with 800 samples.

Results

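A set of 9 genes whose proteins build or steer the neuronal growth cone was followed through 800 single-cell libraries of embryonic mouse retina: Crmp1, Dpysl2, Dpysl3, Dpysl4, Dpysl5, Gap43, Map1b, Mapt and Dcx. They were chosen by name, with earlier results of these data known. The shares over all genes given beside counts of members therefore describe and do not test. All 9 of 9 had a row among the 49492 gene symbols of the count table. Cells were dissociated and sorted from E15.5 embryo retinas; the labels give Sert-Cre mice of strain C57BL/6 and call 400 cells Tomato+ and 400 Tomato-. Sert-Cre drives Cre recombinase from Slc6a4, the serotonin transporter gene, which in developing retina is known from retinal ganglion cells (RGCs) that project to the same side of the brain. The reporter allele behind the Tomato label and the sorting gate are not given in the sources used here, and the dissociation protocol speaks of 30 retinas without naming an animal for any cell. Each group was therefore 1 sample, no test between groups was made, and no p-value is given.

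The growth cone is the motile tip of an extending axon, where guidance receptors act on actin and on the ends of microtubules. Collapsin response mediator proteins (CRMPs), the products of Crmp1 and the Dpysl genes, relay the repellent signal of class 3 semaphorins, and the Dpysl2 product also binds tubulin and promotes microtubule assembly. Gap43 encodes a membrane-anchored protein kinase C substrate of extending axons, Map1b and Mapt (tau) encode microtubule-associated proteins of the axon, and Dcx encodes doublecortin, which stabilises microtubules in migrating and newly differentiated neurons. In the retina RGCs are the neurons that send axons through the optic nerve. Pou4f2 is a transcription factor of RGCs, Atoh7 one of precursors that are competent to become RGCs, Tfap2b one of amacrine and horizontal cells, and Fgf15 a secreted factor made by retinal progenitors.

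Cells with at most 20% of their counts in mitochondrially encoded genes were kept, which left out 73 Tomato+ and 38 Tomato- cells and kept 689. Their totals ran from 9653 to 644293 counts in Tomato+ cells (median 271789) and from 16826 to 689788 in Tomato- cells (median 243410). Levels are CPM, the counts of a gene per 1000000 counts of all genes, both summed over the cells of a group. A log2 ratio compares CPM + 10 in 2 groups of cells, and 2-fold means a log2 ratio of at least 1. Cell titles carry a number, 1 to 10 for Tomato+ and 11 to 20 for Tomato- cells, with 40 cells each before the filter. The standard deviation (SD) of log2(CPM + 10) between title numbers measures the spread, which mixes technical differences with the sampling of cells. The label cannot be told apart from differences between title numbers, since the groups share none. Slc6a4 itself had 103.75 CPM in Tomato+ cells, against 0.546 CPM in Tomato-.

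The first comparison asked how growth cone genes differ between the labelled cells and the rest of the retina. All 9 members were higher in Tomato+ than in Tomato- cells, and 4 of them at least 2-fold: Gap43, Dpysl3, Mapt and Dcx. Over all 9107 genes with at least 10 CPM, 3.26% were at least 2-fold higher in Tomato+ cells and 44.2% were higher at all. The median log2 ratio was 0.96 over the members and -0.07 over all genes. The label also separated kinds of cell: 9 RGC markers summed to 13450 CPM in Tomato+ cells, against 5812 CPM in Tomato-, and 8 progenitor markers to 813 CPM, against 4377 CPM. The part of this mix of cells in the member ratios was not tested over all cells, and the same comparison within Pou4f2-positive cells follows further on. In sums over cells, fewer cells expressing a gene and less RNA per cell cannot be told apart.

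Among the CRMP genes, Dpysl3 (CRMP4) differed most between the groups. It had 3136 to 4255 CPM over the 10 Tomato+ title numbers (median 3441), against 1131 to 2038 CPM over the 10 Tomato- title numbers (median 1645). The ranges did not overlap, and the log2 ratio was 1.06 with an SD of 0.21. Crmp1 stood at 918 to 1204 CPM (median 1006) in Tomato+ and at 407 to 791 CPM (median 568.03) in Tomato- title numbers, a log2 ratio of 0.78 (SD 0.25). For Dpysl5 (CRMP5), a family member expressed mainly in the developing nervous system, the values were 268.5 to 499.5 CPM in Tomato+ (median 411) and 121.8 to 258.1 CPM in Tomato- title numbers (median 217.997). Its log2 ratio was 0.91 (SD 0.31). Dpysl2 (CRMP2), the best studied member, was less different, at 509 to 799 CPM (median 661) against 299.6 to 492.6 CPM (median 425), a log2 ratio of 0.63 (SD 0.22). Dpysl4 (CRMP3) differed least. Its 10 Tomato+ title numbers lay between 201.99 and 311.3 CPM and its 10 Tomato- title numbers between 146.6 and 280.2 CPM, so the ranges overlapped, with a log2 ratio of 0.36 (SD 0.22).

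Gap43 had 3285 to 4121 CPM in Tomato+ title numbers (median 3737) and 1325 to 2749 CPM in Tomato- title numbers (median 1650). Its groups did not overlap, and the log2 ratio was 1.14 (SD 0.22). The microtubule-binding genes followed the same order of groups. Mapt showed the largest ratio of the 9 members, 1.48 (SD 0.37), with 1494 to 2109 CPM in Tomato+ title numbers (median 1899) and 276.6 to 916 CPM in Tomato- title numbers (median 663). Map1b lay between 5310 and 6499 CPM in Tomato+ (median 6001) and between 2434 and 3653 CPM in Tomato- title numbers (median 2959), a log2 ratio of 0.96 (SD 0.16). Dcx reached 928 to 1275 CPM (median 1097) in Tomato+ title numbers and 373.6 to 723 CPM (median 555) in Tomato- title numbers, a log2 ratio of 1.01 (SD 0.22). That of Dcx lay close to 2-fold and was under 1 without title number 6, 7, 11, 14 or 15, at the lowest 0.96. In all, 8 of 9 members had no overlap between the title numbers of the groups, against 1.87% of all genes.

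**Figure D1:**
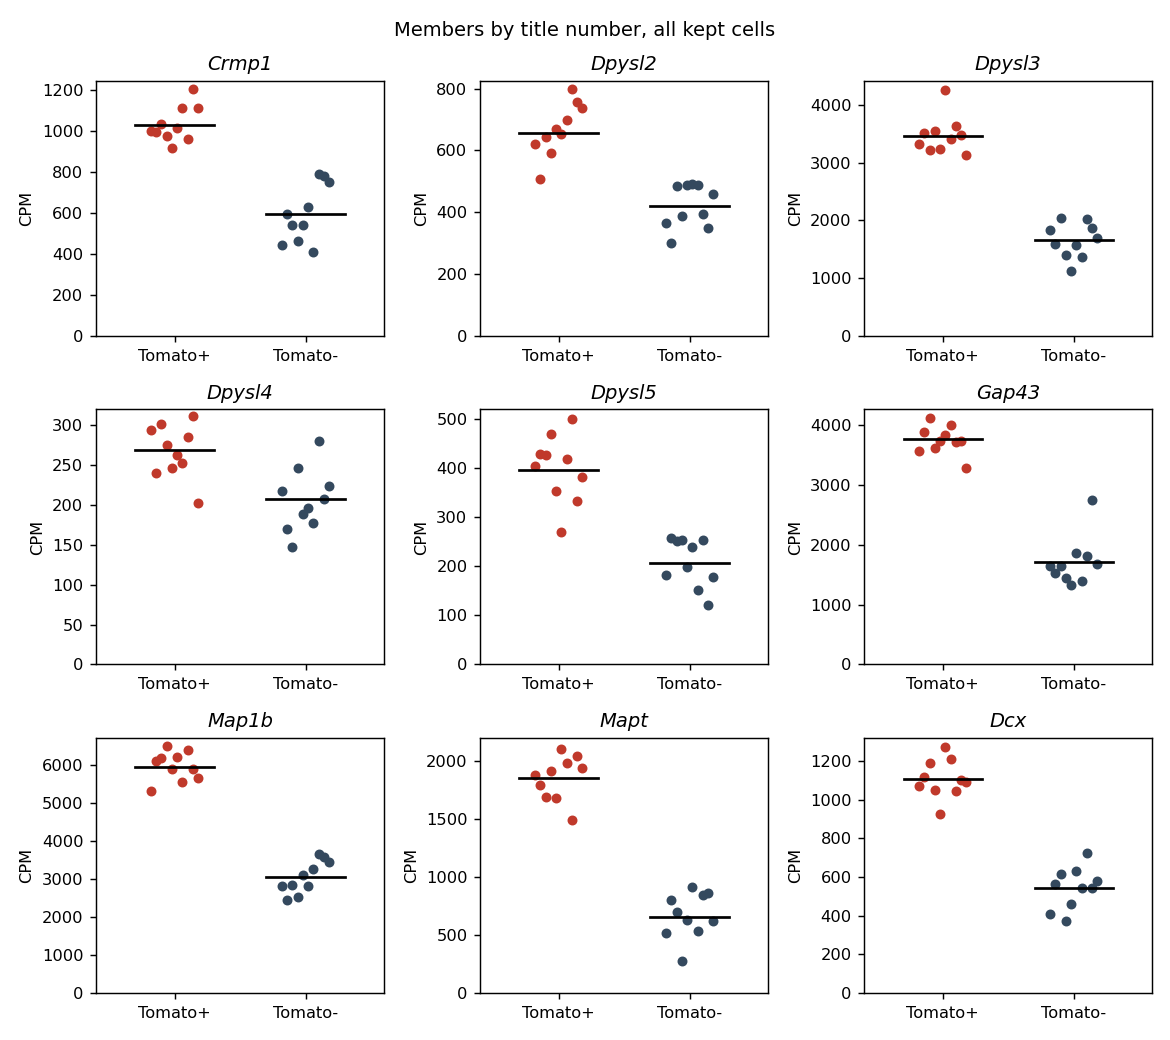
CPM of each member over all kept cells, Tomato+ on the left and Tomato- on the right of each panel. Points are the 10 title numbers of a group, spread sideways for legibility, and the black line is the CPM over all cells of the group. Only for Dpysl4 do the points of the groups overlap.

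At least 5 counts of a member were found in 79.5% (Dpysl4) to 100% (Map1b) of Tomato+ cells and in 52.2% (Dpysl5) to 99.7% (Map1b) of Tomato- cells. For Dcx the share was 98.2% of Tomato+ cells, against 56.6% of Tomato- cells, and with each cell thinned to 94783 counts (33 Tomato+ and 36 Tomato- cells were shallower and left out) the shares were 98.98% and 48.8%. For Mapt the shares were 99.4% and 61.05% unthinned. The median Tomato+ cell had 1764 CPM of Mapt and 1039 CPM of Dcx, and the median Tomato- cell 58.8 and 44.98 CPM. The 90th percentiles were closer together, at 3125 CPM of Mapt in Tomato+ cells, against 1908 CPM in Tomato-. For Map1b, every one of the 689 kept cells had at least 1 count.

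A cell was called positive for a marker gene at 5 or more counts. Pou4f2-positive cells made up 64.8% of the kept Tomato+ and 25.7% of the kept Tomato- cells (93 cells). Fgf15-positive cells made up 2.75% (9 cells) and 54.1%. Tfap2b-positive cells numbered 4 and 39, and Atoh7-positive cells 3 and 46. Only Pou4f2-positive cells were thus frequent enough to be compared between the labels. The sets overlap. Among Tomato- cells 22 were positive for Pou4f2 and Fgf15 and no other of the 4 genes. In the same way 21 were positive for Atoh7 and Fgf15, 15 for Tfap2b and Fgf15, and 7 for Pou4f2 and Tfap2b. Markers that did not define the sets checked them. The 9 RGC markers summed to 10069 CPM in Pou4f2-positive, 3373 CPM in Tfap2b-positive, 1484 CPM in Atoh7-positive and 2834 CPM in Fgf15-positive Tomato- cells, and the 8 progenitor markers to 1613, 3832, 5420 and 6486 CPM in the same order. In Tfap2b-positive cells 9 amacrine and horizontal markers summed to 1732 CPM, against 276.3 CPM in Fgf15-positive cells. The 8 neurogenic precursor markers summed to 3676 CPM in Atoh7-positive cells, against 1309 CPM in Fgf15-positive cells, and 6 photoreceptor markers to 911 CPM, against 280.4 CPM.

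Within Tomato- cells, which share title numbers, Pou4f2-positive cells were set against Fgf15-positive cells. All 9 members were at least 2-fold higher in Pou4f2-positive cells, against 6.36% of all genes, with a median log2 ratio of 1.43. Dcx was at 894 CPM in Pou4f2-positive and 262.1 CPM in Fgf15-positive cells, a log2 ratio of 1.73 (SD 0.62). Gap43 had the same ratio of 1.73 (SD 0.77), at 2957 and 887 CPM. Crmp1 stood at 995 and 308.9 CPM, a log2 ratio of 1.66, and Mapt at 1082 and 342.5 CPM, a ratio of 1.63. Dpysl2 and Dpysl4 lay nearest to 2-fold, with log2 ratios of 1.00 and 1.08. Dpysl4 was higher in Pou4f2-positive cells in 9 of 10 title numbers, and each of the other 8 members in 10 of 10. Dpysl2 was under 2-fold without title number 11, 12, 14, 16 or 17 (lowest 0.94), and Dpysl4 without title number 19 (0.96). Pou4f2-positive cells were also deeper, with a median total of 325092 counts against 237829.

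How cells were called set the size of this difference. In cells positive for Pou4f2 alone (54 cells) against cells positive for Fgf15 alone (36.5% of kept Tomato- cells), the median log2 ratio was 2.07, and Crmp1 reached 2.58. With 1 count enough to call a cell positive, the median was 0.54 and none of the 9 members was 2-fold. The share of all genes past 2-fold at 1 count is not given here, so this count cannot be set against it.

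Tfap2b-positive cells gave an uneven picture. Dcx was at 621 CPM there and at 262.1 CPM in Fgf15-positive cells, a log2 ratio of 1.21 with an SD of 1.05. It was the only 1 of 9 members past 2-fold, against 4.5% of all genes. Dpysl5 (217.9 against 107.9 CPM, log2 ratio 0.95), Crmp1 (584 against 308.9 CPM, 0.90) and Dpysl4 (270.4 against 141.5 CPM, 0.89) were next. Gap43 and Map1b hardly differed: Gap43 stood at 983 and 887 CPM (log2 ratio 0.15, higher in 4 of 7 title numbers) and Map1b at 1959 and 1952 CPM (log2 ratio 0.00, higher in 3 of 7). With 1 count enough for a positive call, the log2 ratio of Dcx was 0.08. Averaged over differences within title numbers it was 0.99, and that of Mapt -0.47. In the 12 cells positive for Tfap2b alone, set against cells positive for Fgf15 alone, Dcx (2.23), Crmp1 (1.64), Dpysl3 (1.52) and Dpysl5 (1.33) were past 2-fold, 4 of 9 members against 13.4% of all genes, and Gap43 stood at -0.29. Only 7 title numbers held at least 3 of the 39 cells (3 to 9 each), and the SDs of the members ran from 0.50 to 1.16. For Mapt, 62.8% of the counts in Tfap2b-positive cells came from the 4 cells with most counts of the gene, and for Gap43 59.97%.

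In Atoh7-positive cells the members split by gene. Dcx, Mapt and Gap43 were at least 2-fold lower than in Fgf15-positive cells, 3 of 9 members against 7.26% of all genes. Dcx had 79.1 CPM in Atoh7-positive and 262.1 CPM in Fgf15-positive cells (log2 ratio -1.61, SD 1.19), and it was lower in 8 of 9 title numbers. Mapt had 136.2 and 342.5 CPM (-1.27, SD 1.36), and Gap43 391.4 and 887 CPM (-1.16, SD 1.09). The other 6 members had log2 ratios between -0.50 (Dpysl5) and 0.11 (Crmp1). Dpysl2 was lower in Atoh7-positive cells in 9 of 9 title numbers, though only by 0.40 on the log2 scale, at 229.6 against 306.4 CPM. Without title number 17 the ratios were larger, at -1.90 for Gap43 and -2.08 for Mapt, and without title number 16 that of Gap43 was -0.998. None of the 3 genes was 2-fold lower when 1 count made a cell positive (Dcx -0.40, Gap43 -0.52, Mapt -0.96). The share of all genes for that setting is not given here. In the 13 cells positive for Atoh7 alone, set against cells positive for Fgf15 alone, the 3 genes were 2-fold lower (Gap43 -1.67, Mapt -1.34, Dcx -1.24), against 26.2% of all genes. There Dpysl3 (0.71), Dpysl5 (0.37), Dpysl4 (0.36) and Crmp1 (0.30) were higher and Map1b did not differ (0.000337), so the signs of Dpysl3, Dpysl4 and Dpysl5 turned with the way cells were called. The order of the 4 sets of Tomato- cells thus depended on the gene. By CPM over these overlapping sets, Pou4f2-positive cells were highest and Tfap2b-positive cells next for every member. The second place did not hold in each reading. In cells positive for 1 of the 4 genes alone, Gap43 was lower in the Tfap2b than in the Fgf15 cells (-0.29). Averaged over differences within title numbers, Gap43 (-0.12), Map1b (-0.17) and Mapt (-0.47) were lower in Tfap2b-positive than in Fgf15-positive cells. The log2 ratio of Tfap2b-positive to Fgf15-positive cells lay within the SD for Dpysl2 (0.38, SD 0.66), Gap43 (0.15, SD 1.11), Map1b (0.005, SD 0.54) and Mapt (0.49, SD 1.16). The last places, Atoh7-positive and Fgf15-positive, did not differ beyond this SD for 7 members. The SD takes no account of the title numbers that the sets share. Averaged over differences within title numbers, Dpysl2 was higher in Tfap2b-positive than in Fgf15-positive cells (0.45, SD 0.34, in 7 of 7). By the same average Dpysl2 (-0.42, SD 0.35) and Mapt (-1.91, SD 1.69) were lower in Atoh7-positive cells beyond the SD, besides Gap43 and Dcx.

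**Figure D2:**
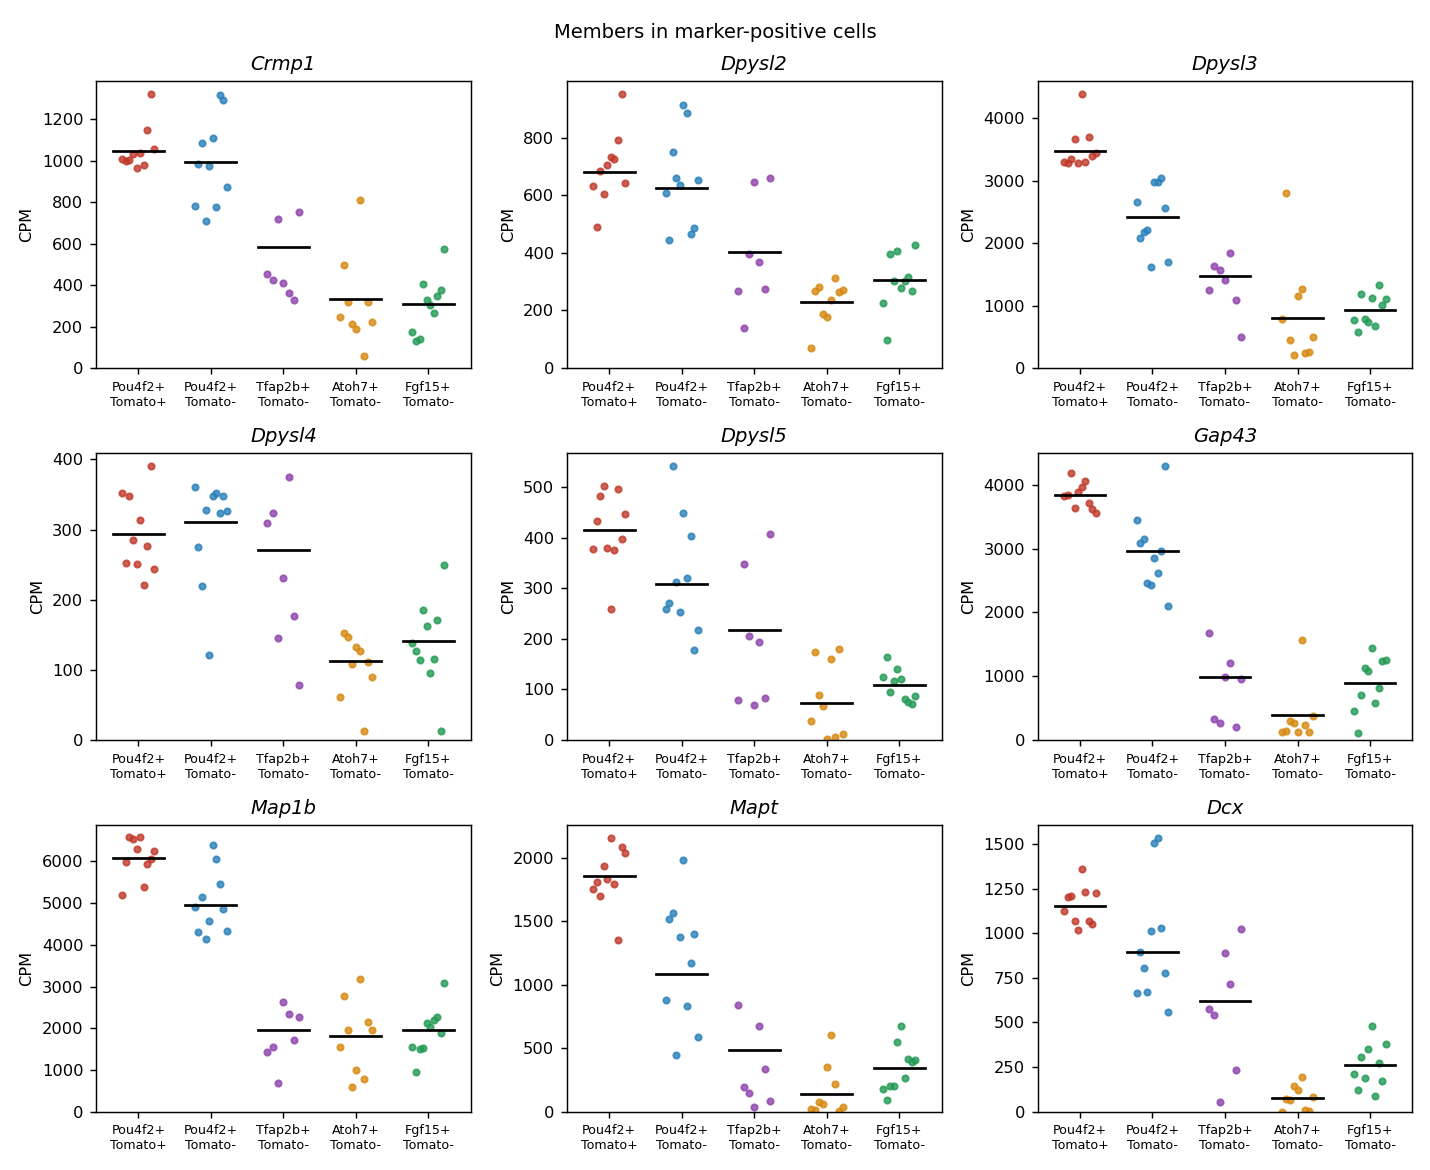
CPM of each member in marker-positive cells, from left to right Pou4f2-positive Tomato+ cells and then Pou4f2-, Tfap2b-, Atoh7- and Fgf15-positive Tomato- cells. Points are title numbers with at least 3 such cells, and black lines are the CPM over all cells of the set. By CPM every member except Crmp1 is lowest in Atoh7-positive cells, and only Dcx, Mapt and Gap43 are at least 2-fold below Fgf15-positive cells there. Map1b stands at similar levels in the 3 sets on the right.

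Members were found outside Pou4f2-positive cells as well, with some of them gathered in few cells. The median Fgf15-positive Tomato- cell had 85.6 CPM of Gap43 and the cell at the 90th percentile 2997 CPM. The 20 cells with most counts of the gene held 76.7% of its counts over all Fgf15-positive Tomato- cells, and 78.1% for Mapt. The lowest shares were 46.3% for Map1b and 42.8% for Dpysl2, and the other 5 members lay between 57.2% (Dpysl3) and 75.7% (Dcx). The 22 Pou4f2-positive Tomato+ cells with most counts held 21.1% of the Gap43 counts of that set. Cells positive for Fgf15 alone gave the background of cells that are not known to extend axons. There the members stood at 15.98% (Crmp1) to 37.4% (Dpysl2) of their level in cells positive for Pou4f2 alone. RGC markers stood at 11.1% (Isl1) to 27.8% (Ebf3) of theirs in the same cells, among them Sncg at 15.4%. The part of RNA carried over from RGCs in these levels was not tested. With these cells thinned to 94783 counts (23 were shallower), at least 5 counts were left in 22.02% of them for Dcx and in 91.7% for Map1b.

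Cells positive for none of the 4 genes were not low in the members. In these Tomato+ cells (32.7% of those kept) Gap43 was at 3772 CPM and Mapt at 1902 CPM, close to the 3840 and 1855 CPM of Pou4f2-positive Tomato+ cells. In the 73 such Tomato- cells they were at 2568 and 1091 CPM, and the RGC markers summed to 9323 CPM there.

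The label was then compared within Pou4f2-positive cells, where both groups hold cells with the same RGC factor. Differences were smaller: 0 of 9 members were at least 2-fold higher in Tomato+ cells, against 2.03% of all genes, and 8 of 9 were above 0, against 46.3%. The median log2 ratio was 0.37, against -0.04 over all genes. Dpysl3 was the 1 member whose title numbers did not overlap (0.187% of all genes), at 3278 to 4385 CPM in Tomato+ (median 3366) and 1616 to 3037 CPM in Tomato- title numbers (median 2379), a log2 ratio of 0.52 (SD 0.25). Mapt had a larger ratio and a larger spread, at 1353 to 2156 CPM (median 1825) in Tomato+ and 448 to 1983 CPM (median 1274) in Tomato- title numbers, a ratio of 0.77 (SD 0.49). Gap43 stood at 3550 to 4186 CPM in Tomato+ and 2106 to 4291 CPM in Tomato- title numbers, with a log2 ratio of 0.38 (SD 0.21). Map1b (0.30, SD 0.17), Dcx (0.37, SD 0.35) and Dpysl5 (0.42, SD 0.39) overlapped too. Crmp1 (0.07, SD 0.24), Dpysl2 (0.12, SD 0.31) and Dpysl4 (-0.08, SD 0.38) differed by less than the SD. Cell titles also carry a row, 1 to 40, and both groups have cells in each. Averaged over differences within title rows, which hold few Tomato- cells each (93 over 40 rows), the median was 0.84. Mapt (1.85, SD between rows 2.26, higher in 33 of 40) and Dpysl5 (1.35, SD 2.10, higher in 27 of 40) were then past 2-fold. The share of all genes past 2-fold by this average is not given here, so the count of members cannot be set against it.

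Markers of other cells moved with this comparison. The 8 progenitor markers summed to 769 CPM in Pou4f2-positive Tomato+ cells (618 to 975 over title numbers) and to 1613 CPM in Pou4f2-positive Tomato- cells (518 to 2735), and the 8 neurogenic precursor markers to 124.3 and 532 CPM. The 9 RGC markers summed to 13533 and 10069 CPM. Erythroid markers summed to 1377 CPM in Pou4f2-positive Tomato+ and 1.64 CPM in Pou4f2-positive Tomato- cells, and without the cells holding at least 100 Hbb-y counts the median log2 ratio of the members was unchanged to 2 decimals, at 0.37. Restricting both groups to cells positive for Pou4f2 alone, 62.7% of the kept Tomato+ and 14.9% of the kept Tomato- cells, brought the median to 0.11. Of the 9 members 6 were then above 0, against 49.5% of all genes, and 0 were 2-fold higher, against 3.45%. Gap43 stood at 3835 CPM in these Tomato+ and 3553 CPM in these Tomato- cells (log2 ratio 0.11), and Map1b at 6123 and 5657 CPM (0.11). Mapt, at 1875 and 1230 CPM, had a ratio of 0.60, and Dpysl3, at 3492 and 2711 CPM, one of 0.36. Progenitor markers still summed to 739 CPM in these Tomato+ and 1168 CPM in these Tomato- cells, and their part in the remaining ratios was not tested.

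**Figure D3:**
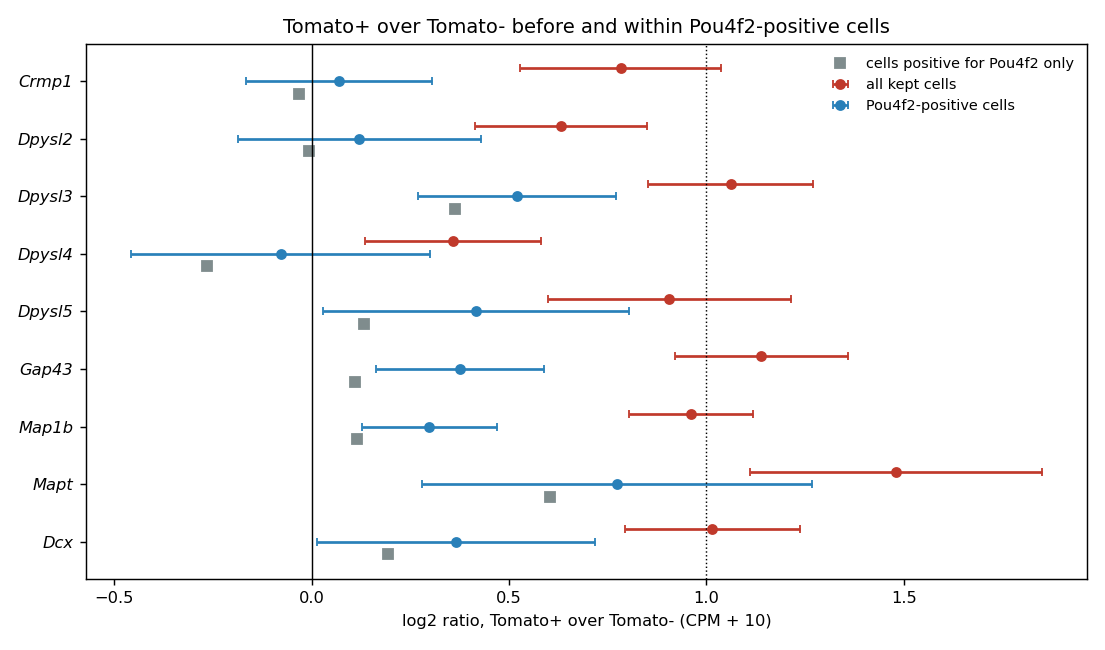
Log2 ratio of CPM + 10, Tomato+ over Tomato-, for each member over all kept cells (red), within Pou4f2-positive cells (blue) and within cells positive for Pou4f2 alone (grey squares). Bars are the SD between title numbers and the dotted line marks 2-fold. The blue points lie left of the red ones for all 9 members, and the grey squares of Crmp1, Dpysl2 and Dpysl4 lie below 0.

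Pou4f2-positive cells of the 2 groups also differed in how evenly the members were spread. Over single cells the SD of log2(CPM + 10) of Mapt was 0.84 in Tomato+ and 2.74 in Tomato- cells, and that of Dcx 0.95 and 2.36. The 10th percentile of Mapt was 873 CPM in Tomato+ cells, against 7.63 CPM in Tomato-, while the 90th percentiles were 3079 and 2551 CPM. Map1b was the most even member in both, with SDs of 0.44 and 1.07. Dpysl4 was the least even in Tomato+ cells, with an SD of 1.87 and a 10th percentile of 8.0 CPM. At least 5 counts of Dpysl4 were found in 86.8% of Tomato+ and 76.3% of Tomato- Pou4f2-positive cells, and after thinning in 80.7% and 76.1%. The 2 sets differ in their mix of cells. Only 54 of the 93 Pou4f2-positive Tomato- cells were positive for Pou4f2 alone. Of the kept Tomato+ cells 64.8% were Pou4f2-positive and 62.7% were positive for Pou4f2 alone. The part of cells positive for another marker gene in these SDs and percentiles was not tested.

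**Figure D4:**
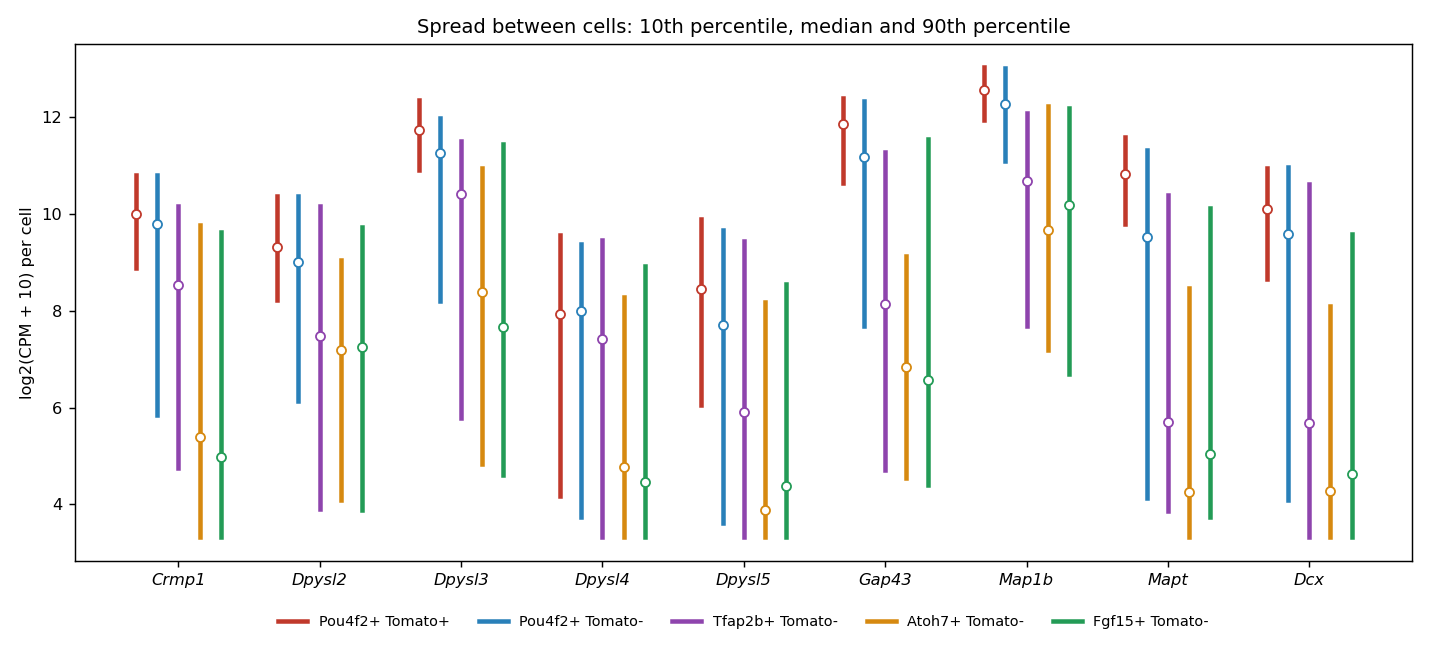
Spread between single cells, as log2(CPM + 10), for each member in 5 sets of marker-positive cells. Lines run from the 10th to the 90th percentile over cells and circles mark the median. In Pou4f2-positive cells of both labels the line of Map1b is the shortest, and in Pou4f2-positive Tomato+ cells only the lines of Dpysl4 and Dpysl5 reach below 100 CPM.

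Members varied together over all kept cells and within the sets of Tomato- cells read here, and hardly at all within Pou4f2-positive Tomato+ cells. Over the 36 pairs of members, Pearson's r between log2(CPM + 10) values had a median of 0.04 in Pou4f2-positive Tomato+ cells (lowest -0.09, highest 0.35) and of 0.42 in 93 Pou4f2-positive Tomato- cells (0.07 to 0.68). Over all 689 kept cells the median was 0.60 (0.33 to 0.81). Gap43 and Mapt, the pair with the highest r over all cells (0.81), had the lowest, -0.09, in Pou4f2-positive Tomato+ cells. The highest pair there was Dpysl3 and Mapt, at 0.35. These values describe cells that share libraries and depth. The part of cells positive for another marker gene in the r of Pou4f2-positive Tomato- cells was not tested. Gap43 had r of 0.43 with the log2 total of the cell in Pou4f2-positive Tomato+ and 0.53 in Pou4f2-positive Tomato- cells. For the other members this r lay between -0.22 and 0.14 in the Tomato+ set and between -0.003 and 0.33 in the Tomato- set. In cells positive for Fgf15 alone it ran from -0.41 (Mapt) to -0.03 (Dpysl2).

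**Figure D5:**
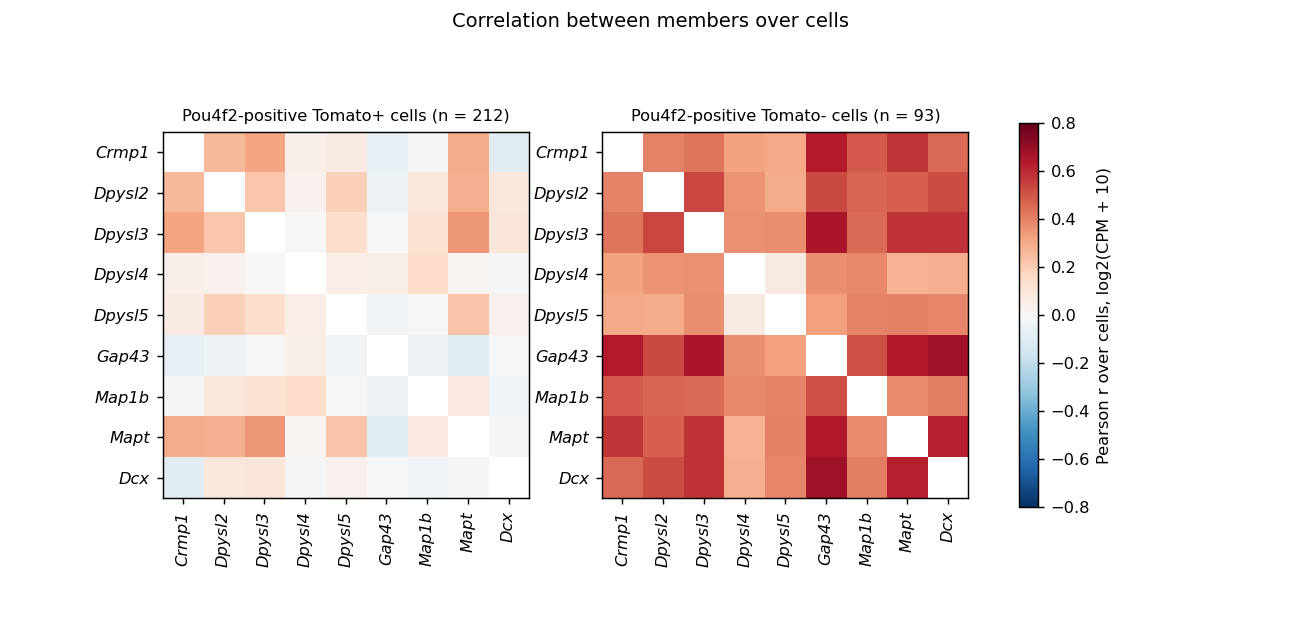
Pearson's r between members over cells, on log2(CPM + 10), in Pou4f2-positive Tomato+ cells (left) and Pou4f2-positive Tomato- cells (right). The colour scale runs from -0.8 (blue) to 0.8 (red), and the diagonal is left blank. Most squares on the left are pale. On the right the darkest are those of Gap43 with Dcx (0.68), Dpysl3 (0.65), Mapt (0.64) and Crmp1 (0.64).

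The genes most like the members were ranked by Pearson's r with the mean of the standardised members, among 7546 genes that reached 5 counts in 10% or more of the kept cells. Over all kept cells the first was Ina (r = 0.88), the gene of the neurofilament subunit internexin. It was followed by Sncg, Stmn2, Rtn1, Ebf1, Uchl1, Nefl, Stmn3, Nefm and Tuba1a (0.82). Within Pou4f2-positive Tomato+ cells values were lower, with Uchl1 first (0.52), then Tubb2b (0.46), Ttc3, Ina, Tubb2a, Syt11, Tuba1a, Sbk1, Lhfp and Tubb5 (0.31). Tuba1a and Tubb5, both tubulin genes, also had r of 0.50 and 0.42 with the log2 total of the cell in that set.

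Within Tomato+ cells the members were set beside genes tied to RGC subtypes. Cells with at least 5 Slc6a4 counts (36.7% of kept Tomato+ cells) and cells with none (49.2%) differed little: Gap43 was at 3786 and 3873 CPM, and all 9 log2 ratios lay within 0.19 of 0. Dpysl3 was lower in the Slc6a4-positive cells, at 3172 against 3601 CPM (log2 ratio -0.18), in 8 of 10 title numbers. For Eomes (36.4% of cells with at least 5 counts, 44.3% with none), a T-box factor of RGC subtypes, and for Ephb1 (54.1% and 30.6%), the ephrin receptor of uncrossed axons, all ratios lay within 0.19 of 0 as well. For Pou4f1 (49.5% and 26.6%), a factor of many RGCs, 2 members had larger ratios, of about the SD or less. Dpysl4 was lower in Pou4f1-positive cells, at 222.9 against 302.1 CPM (log2 ratio -0.42, lower in 8 of 10 title numbers, SD 0.40), and Dpysl5 higher, at 421 against 316.6 CPM (0.40, higher in 8 of 10, SD 0.67). Among all genes these ratios stood at percentiles 12.2 and 85.1. The other 7 members had ratios between -0.11 and 0.09 there. Median totals were 288436 counts in Pou4f1-positive cells and 240995 in those with none.

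Pathway partners of the members were read in the same comparison over all kept cells. Of 19 semaphorin receptor and signalling genes, 11 had at least 10 CPM, of which 3 were at least 2-fold higher in Tomato+ cells (3.26% of all genes, as for the lists that follow) and 0 at least 2-fold lower. Nrp1, the semaphorin-binding neuropilin, led at 216.1 against 88.6 CPM (log2 ratio 1.20), followed by L1cam, an adhesion molecule and neuropilin partner, at 232.97 against 102.8 CPM (1.11). Rac1, a small GTPase of actin remodelling, was lowest at 43.05 against 58.7 CPM (-0.37), and the ligand Sema3e stood at 19.3 and 17.9 CPM. Their median was 0.43, against -0.07 over all genes. Of 17 kinase and phosphatase partners, 14 passed 10 CPM and 1 was at least 2-fold higher, Mark1, a kinase of microtubule-associated proteins (125.05 against 53.2 CPM, log2 ratio 1.09). Cdk5r1, the activator of the CRMP and tau kinase Cdk5, followed at 372.8 against 188.7 CPM (0.95). The list's median was 0.34.

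Of 30 other growth cone and axonal cytoskeleton genes, all with at least 10 CPM, 8 were at least 2-fold higher and 0 at least 2-fold lower in Tomato+ cells, with a median of 0.76. Kif5a, a motor of axonal transport, stood at 382.8 against 135.2 CPM (log2 ratio 1.44) and Stmn3, a microtubule-destabilising stathmin, at 1691 against 663 CPM (1.34). Numb, an endocytic adaptor (8.22 against 23.4 CPM, -0.87), and Marcks, an actin-binding kinase C substrate (1157 against 1378 CPM, -0.25) were lowest. Microtubule genes of many cell types behaved otherwise: 0 of 10 were at least 2-fold higher and 3 were at least 2-fold lower (7.12% of all genes), with a median of -0.42. Kif11, the mitotic spindle motor, was at 1.88 CPM in Tomato+ cells, against 132.7 CPM in Tomato-, and Tuba1c at 1.48 and 51.5 CPM, while Stmn1 (0.84) and Map4 (0.66) were highest. Of 7 further relatives of the members 4 had at least 10 CPM and 0 passed 2-fold in either direction: Map1lc3a (0.93) and Map1lc3b (0.71), named as light chains of MAP1 proteins, and Map1s (0.36) and Map1a (0.03). Within Pou4f2-positive cells 0 genes of these 5 lists were at least 2-fold higher in Tomato+ cells, against 2.03% of all genes. Of these genes Kif5a came nearest, at 390.1 against 197.5 CPM (0.95). Only 1 gene of the lists was at least 2-fold lower, Kif11 at 0.88 against 17.9 CPM (-1.36), against 2.81% of all genes.

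The members lie on 8 chromosomes in the GENCODE M21 annotation of GRCm38, the assembly that the submitters' notes call mm10. Crmp1 (chr5:37241940-37292133) and Dpysl5 (chr5:30711564-30799375) share chromosome 5, and Dcx (chrX:143855842-143933311) is X-linked. No exon of a member overlapped an exon of another gene. RefSeq promoter sequence (GRCm38.p6, the 250 bases before the start) was at hand for 4 of 9 members and is shown because these genes were higher together in Pou4f2-positive cells. It was searched for CANNTG (the E-box), CAGCTG (an E-box core) and ATTAAT (the core of a site of POU factors, picked after the sequences had been seen), each of which reads the same on both strands. CAGCTG was in 0 of the 4 windows and in 13.001% of 32851 promoters, which belong to 27025 genes, some with more than 1. CANNTG was in 2 of 4, those of Dpysl5 and Map1b, and in 66.2% of promoters. ATTAAT was in 1 of 4, that of Dcx, and in 4.39% of promoters. A match is a description of these letters only. The GC content was 75.6% for Crmp1, 66.4% for Map1b, 62.8% for Dpysl5 and 41.6% for Dcx, against a median of 52.4% over all promoters. For Dpysl5, Crmp1 and Dcx the stretches outside annotated exons are printed 5′ to 3′ on the strand of the gene, with CANNTG or ATTAAT in capitals where present. Most of the Map1b window lies in annotated exons, and it is not printed. The last line, a site of 30 bases around ATTAAT, lies inside an annotated exon of Dcx.
Dpysl5, chr5:30711314-30711563, plus strand: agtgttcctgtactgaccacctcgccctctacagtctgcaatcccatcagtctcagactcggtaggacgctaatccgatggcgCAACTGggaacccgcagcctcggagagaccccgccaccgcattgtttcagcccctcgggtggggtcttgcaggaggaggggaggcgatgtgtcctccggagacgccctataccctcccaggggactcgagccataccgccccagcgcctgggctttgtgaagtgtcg
Crmp1, chr5:37241808-37241939, plus strand: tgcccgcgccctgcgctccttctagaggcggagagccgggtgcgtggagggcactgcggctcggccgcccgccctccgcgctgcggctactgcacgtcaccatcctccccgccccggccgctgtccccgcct
Dcx, chrX:143933312-143933469, minus strand: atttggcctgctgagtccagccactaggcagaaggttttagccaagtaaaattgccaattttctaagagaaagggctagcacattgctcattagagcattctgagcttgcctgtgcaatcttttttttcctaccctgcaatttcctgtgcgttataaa
Dcx, chrX:143933239-143933268, minus strand, around ATTAAT: aaaaagcatgtaATTAATcataggaggttg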

How the data were processed

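The authors deposited 1 table of counts, whole numbers per gene and cell, without normalisation; column names end in umi, and whether molecules or reads were counted is not given in the sources used here. Per the labels' protocols the libraries were SmartSeq2, and the series title names C1. Per the submitters' processing notes Seurat 2.3, R 3.4.4 and mm10 were used; the aligner, counter and strand setting are not given in the sources used here. The table has 801 columns; 1 of them has no label and stayed out.

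Columns were matched to cells by title. Cells above 20% mitochondrial counts (73 Tomato+, 38 Tomato-) were left out, and no doublet caller was run, so cells positive for 2 marker genes may include doublets. Counts were summed over cells and divided by summed totals; CPM and log2 ratios with a pseudocount of 10 CPM were computed in Python 3.11.15 and checked on simulated data. TMM factors came from edgeR 4.0.16 and median-of-ratios factors from DESeq2 1.42.0 (R 4.3.3), as scalings only. Within-row and within-title-number differences were added after seeing the data. The 95% Poisson interval of a level is narrow at these depths (for Dpysl4, 264.8 to 271.8 CPM in Tomato+ cells) and covers counting error only, so the SD between title numbers is given in its place. Beyond the members, the text names the 2 highest and 2 lowest genes of each partner list over all kept cells, and the 10 genes most like the members. The lowest genes of the kinase list are not reported here. The members and lists were chosen with earlier results of these data known. Protein sequences were not used here.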

Additional observations from a re-analysis of the deposited data

Results flagged for a closer look

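Title numbers of 1 group were compared with each other. Of 36 sets of 10 title numbers, 5 held 1 value standing far from the rest. Chance alone gives about 1 in 20 sets if the sets are independent, and these are not. Members share cells, and Pou4f2-positive cells are also among all kept cells, so 5 of 36 cannot be set against that rate. In Tomato+ cells Dpysl3 reached 4254.5 CPM in title number 6 (34 cells), where the next value was 3636 CPM. Within Pou4f2-positive Tomato+ cells the same title number (23 cells) was high for Dpysl3, at 4384.78 CPM with the next at 3701 CPM, and low for Dpysl5, at 260.167 CPM with the next at 375.2 CPM. Crmp1 reached 1319.67 CPM in title number 9 of the same set (21 cells), with the next value at 1149 CPM. Among Tomato- cells Gap43 stood at 2749.29 CPM in title number 19 (35 cells), with the next at 1867 CPM, and the log2 ratio of Gap43 over all kept cells lay between 1.11 and 1.24 when single title numbers were left out.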

How the results depend on the processing

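Over all kept cells the median log2 ratio of the members (0.96) lay between 0.91 and 1.10 under each alternative run, and the count of members at least 2-fold higher in Tomato+ cells (4 of 9) was 7 with cells weighted equally, 6 with TMM or median-of-ratios scaling, which shift all log2 ratios by 0.12 and 0.14, and 3 to 4 with 1 title number left out. Within Pou4f2-positive cells the median (0.37) was 0.61, and 1 member (Mapt) was 2-fold higher, when 1 count made a cell positive; it was 0.11 in single-positive cells and 0.29 to 0.38 with 1 title number left out. The median for Pou4f2-positive over Fgf15-positive Tomato- cells (1.43) was 0.54 at 1 count, 1.86 at 20 counts, 2.07 in single-positive cells and 1.38 to 1.505 with 1 title number left out. For Tfap2b-positive over Fgf15-positive cells (0.67) it was 0.0117 at 1 count and 0.59 to 0.78 with 1 title number left out, and for Atoh7-positive over Fgf15-positive cells (-0.40) -0.56 to -0.29 with 1 title number left out, -0.83 at 20 counts and 0.000337 in single-positive cells. The cause of the dependence on the positivity threshold was not tested. No member at least 2-fold different changed sign under any alternative run. The share of genes at least 2-fold higher over all kept cells was 2.20% among genes with at least 1 CPM. The labels do not say what title rows and title numbers share. With the title row as a block, an alternative chosen after seeing the data, the median was 1.09 over all kept cells (6 members at least 2-fold higher) and 0.84 within Pou4f2-positive cells (2 members). No share over all genes is given for the counts of members at 1 count, with 1 title number left out, under equal weighting, the other scalings or row blocks. With the title number as a block within Tomato- cells it was 1.47, 0.45 and -0.60 for Pou4f2-, Tfap2b- and Atoh7-positive over Fgf15-positive cells. The Tfap2b- and Atoh7-positive sets rest on 39 and 46 cells.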

Other observations

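The 73 Tomato+ and 38 Tomato- cells above the mitochondrial limit enter no comparison above, and the members did not stand alike in them. They are shallower, with median totals of 94705 and 88370 counts, and their CPM are taken over counts outside mitochondrial genes. Gap43 was at 794 CPM in left-out Tomato+ cells, against 4021 CPM in kept Tomato+ cells, and lower in 9 of 9 title numbers with at least 3 left-out cells. Crmp1 (716 against 1097 CPM) and Dpysl3 (2561 against 3693 CPM) were each lower in 8 of 9. Map1b went the other way, at 9185 CPM in left-out and 6344 CPM in kept Tomato+ cells, and was higher in 9 of 9 title numbers. Mapt hardly differed, at 1883 and 1976 CPM, and Dcx stood at 1487 and 1180 CPM. In Tomato- cells Gap43 was at 696 CPM in left-out and 1829 CPM in kept cells (lower in 7 of 8 title numbers) and Map1b at 4987 and 3270 CPM (higher in 7 of 8). Dpysl3 and Dcx differed little there, with signs opposite to those in Tomato+ cells. Dpysl3 was at 1910 against 1773 CPM (log2 ratio 0.11, lower in 3 of 8 title numbers) and Dcx at 516 against 581 CPM (-0.17, lower in 4 of 8). The RGC marker Sncg, taken after its values had been seen, stood at 1055 against 7009 CPM in Tomato+ cells. Of other genes looked at in the same cells, the nuclear RNA Malat1 was higher in left-out Tomato+ cells (33978 against 19518 CPM, in 9 of 9 title numbers), and Actb, Tuba1a and Stmn2 stood at 33.8%, 32.5% and 36.1% of their level in kept cells, each lower in 9 of 9. The part of depth and of the mitochondrial share in these values was not tested.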
